A study of Mus musculus with 167 samples.

Results

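The imprinted Dlk1-Dio3 miRNA cluster was followed in lung, heart, brain and blood cells of mice after whole thorax lung irradiation (WTLI), in which X-rays reached the chest while lead covered all else. The cluster was taken as a fixed list of 43 mature miRNAs out of the 1915 in each deposited table. The list names mature miRNAs encoded between Mir337 and Mir410 but is not complete: 67 more of the imprinted region, among them other arms of listed hairpins, were not on it, and 0 of those passed the filter on low counts in lung. It was drawn up with earlier results of these data known. C3Hf/Sed/Kam mice (C3H, all female) were killed in month 4 and C57Bl/6 mice (C57, both sexes) in month 6 after WTLI or sham irradiation, so that strain and time after exposure cannot be told apart. Irradiated animals were those still alive at the endpoint. Lung, heart, brain and erythrocyte (RBC) libraries numbered 8 sham and 7 WTLI for C3H and 15 sham and 5 WTLI for C57, each from a separate animal, and leukocyte (WBC) libraries 5, 6, 11 and 5 in the same order. Of the 5 irradiated C57 mice 1 was female. Solid tissues were whole homogenates and the blood fractions were made by centrifugation, and in such bulk samples fewer cells of a type and less RNA per cell cannot be told apart.

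The domain between Dlk1 and Dio3 is imprinted: its protein-coding genes are read from the paternal chromosome, while long non-coding transcripts (Meg3, antisense Rtl1, Rian and Mirg) and the miRNAs processed from them come from the maternal one. The miRNAs are known for their abundance in brain, embryo and placenta and for low levels in most adult tissues. Each precursor folds into a hairpin whose 5′ and 3′ arms can both give a mature miRNA (5p and 3p). Bases 2 to 8 of the mature strand, the seed, pair with target mRNAs.

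RefSeq sequences (GRCm38.p6) were found for 40 of the 43 members, and the exceptions were miR-376c-3p, miR-487b-3p and miR-485-5p. The 28 hairpins lay on the + strand of chromosome 12 between 109585789 and 109743795, a span of 158 kb. An upstream group of 10 members ran from miR-337 to miR-136, miR-370-3p stood alone, and the miR-379/miR-410 group held the other 32. In the gene annotation, 8 members lay opposite an exon of Rtl1, 1 in an intron of Rian, 8 in exons and 4 in introns of Mirg, and 19 in no annotated host gene. The 12 members whose values the results turn on are shown 5′ to 3′ with the seed in capitals.
mmu-miR-541-5p: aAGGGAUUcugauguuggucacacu
mmu-miR-431-5p: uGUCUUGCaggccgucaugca
mmu-miR-434-5p: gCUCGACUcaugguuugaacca
mmu-miR-434-3p: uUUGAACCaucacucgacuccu
mmu-miR-376b-3p: aUCAUAGAggaacauccacuu
mmu-miR-376b-5p: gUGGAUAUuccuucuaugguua
mmu-miR-376a-3p: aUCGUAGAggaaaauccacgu
mmu-miR-379-5p: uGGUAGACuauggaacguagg
mmu-miR-411-5p: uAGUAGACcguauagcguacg
mmu-miR-382-5p: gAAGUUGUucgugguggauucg
mmu-miR-136-5p: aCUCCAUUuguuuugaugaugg
mmu-miR-154-5p: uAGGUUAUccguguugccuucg
Across the 40 members there were 39 distinct seeds. The only seed held by more than 1 member was AUGUAAC, in miR-379-3p and miR-411-3p. MiR-376b-3p and miR-376a-3p had the same length and differed at A4G, C13A and U20G (positions from 1 at the 5′ end, the base of miR-376b-3p first), the first of which lies in the seed. MiR-300-3p and miR-381-3p likewise differed at G4A, U21G and C22U. MiR-379-3p and miR-411-3p differed at U10C and U22C, and miR-543-3p and miR-495-3p at U6A, U7A, G9A and C10U. The sources used here do not say how a read that fits more than 1 miRNA was counted, and the split of counts within such near-identical pairs is uncertain. MiR-541-5p lay at chr12:109742422-109742446 in an intron of Mirg, miR-431-5p at chr12:109590459-109590479 and miR-434-5p at chr12:109594528-109594549 opposite Rtl1, and miR-376b-3p at chr12:109723508-109723528 and miR-376a-3p at chr12:109723824-109723844 in no host gene.

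The total miRNA count per library was 2024219 to 4582208 in lung, 1944992 to 4784251 in heart, 1794995 to 3966832 in brain, 2354921 to 7865102 in WBC and 2510857 to 4702286 in RBC. Levels are given as RPM, the reads of a miRNA per 1000000 of that total. After a filter on low counts, tests covered 24 members in lung, 23 in heart, 41 in brain and 1 each in WBC and RBC (miR-379-5p in both). The 19 members below the filter in lung never exceeded 19 counts in a library, and in WBC and RBC 16 and 17 members had no count in any library. A member was called changed at a limma adjusted p under 0.05 and a log2 difference of at least 1.17 in size, referred to as the fold minimum.

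The cluster was far more abundant in brain than elsewhere. In the 23 sham brain libraries the 43 members together made up 38000, 45700 and 52900 RPM (lowest, median and highest), against 261, 327 and 473 RPM in sham lung and 366, 430 and 612 RPM in sham heart. The lowest brain library lay far above the highest library of any other tissue, as the plot of summed cluster RPM by library shows. In sham WBC the sum was 0.913, 3.48 and 20.0 RPM, and in sham RBC it was 4.62, 8.88 and 13.8 RPM in the 8 C3H and 0, 0 and 10.2 RPM in the 15 C57 libraries. The fit across tissues kept 41 members, but 17 of them were below the filter in lung, 18 in heart and 40 each in WBC and RBC. These entered the fit through their brain level, which fixed the outcome, and their calls are not counted. The 24 members that passed the filter in lung itself were each called higher in sham brain than in sham lung (37.5% of the 349 miRNAs that passed there were), and so were the 23 that passed in heart (49.4% of 312). MiR-379-5p was also called higher in brain than in WBC (39.1% of 289) and RBC (41.9% of 229). Over those 24 members the median difference from lung was 6.88 on the log2 scale (range 4.28 to 8.58), against 0.47 over the 349 miRNAs.

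**Figure D1:**
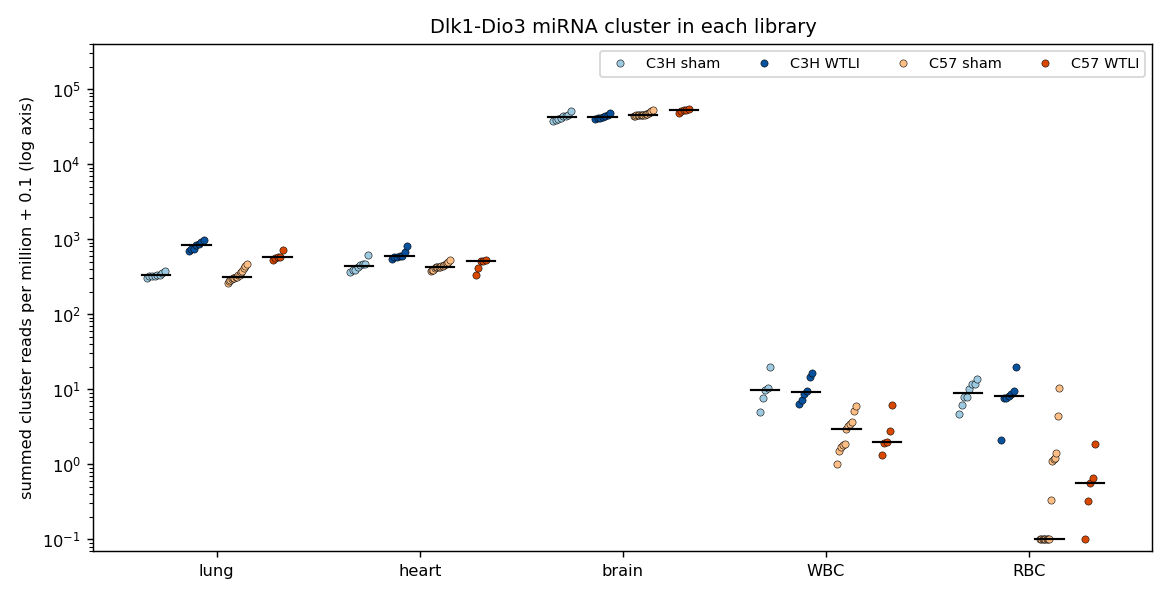
Summed RPM of the 43 cluster members in each library, plus 0.1, on a log axis, by tissue, strain and irradiation, with lines at group medians (libraries with no count sit at 0.1). Brain lies at 38000 RPM or more in every library, all irradiated lungs lie above all sham lungs of their strain, and C3H blood cells lie mostly above C57 ones.

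The make-up of the cluster differed between tissues. In sham brain the most abundant member was miR-382-5p, processed from within an exon of Mirg, at 10300 RPM (22.7% of the cluster), followed by miR-379-5p at 6920 RPM (15.2%), miR-541-5p at 5450 RPM (12%), miR-381-3p at 4380 RPM and miR-434-3p at 3390 RPM. In sham lung miR-379-5p led with 121 RPM (35.8%), ahead of miR-411-5p, its neighbour on the map, with 48.2 RPM (14.3%), and miR-382-5p was at 26.0 RPM. The mean brain level was 396 times the lung level for miR-382-5p and 28.4 times for miR-411-5p. Over the 23 members with a sequence that were tested in both tissues the ratio of means ran from 19.1 (miR-299a-5p) to 396, with a median of 117. With the GC content of the mature sequence the log2 ratio correlated at r = -0.204 (Pearson) and rho = -0.24 (Spearman), a description over 23 miRNAs from the same libraries. MiR-127-3p, whose gene lies opposite Rtl1, averaged 1590 RPM in sham brain, against 1.23 RPM in lung and 0.205 RPM in heart, where it was below the filter and its difference from brain was not counted as tested.

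**Figure D2:**
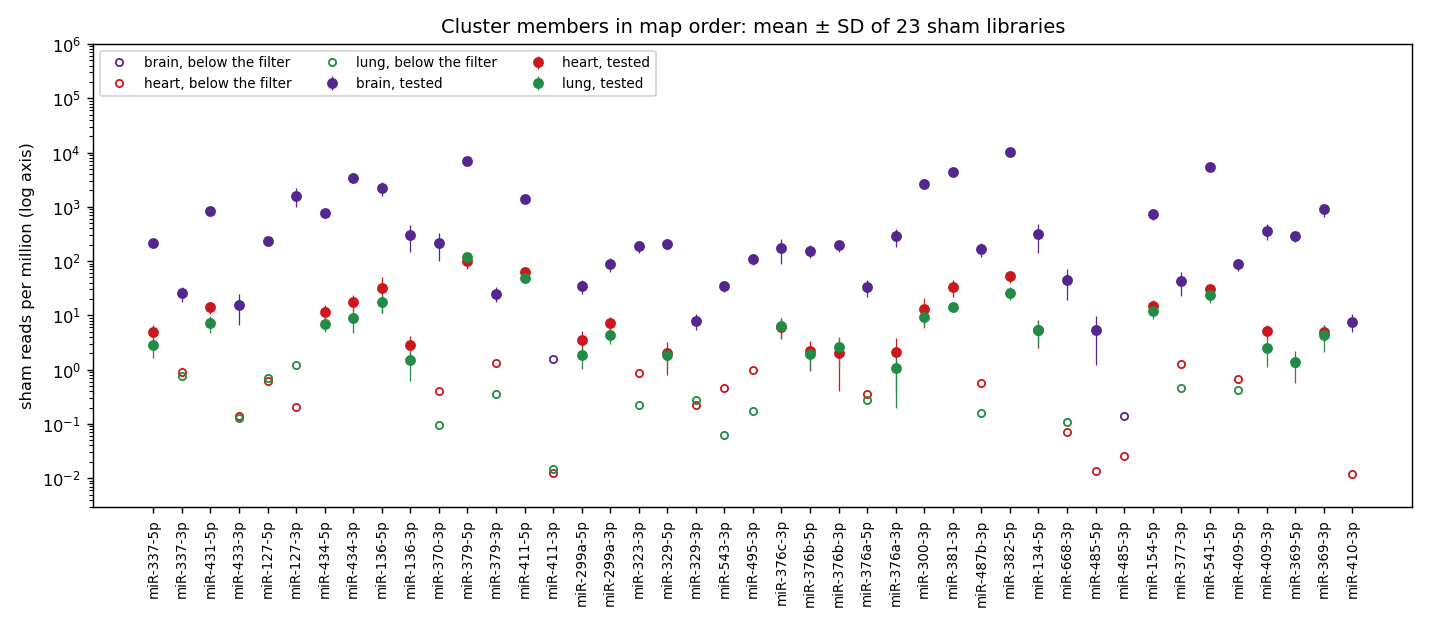
Mean ± SD RPM of each member in the 23 sham libraries of brain, heart and lung on a log axis, in map order from miR-337-5p to miR-410-3p, with open points without error bars for members below the filter of that tissue and no point at a mean of 0. The brain points stand above the others for every member tested in brain, by 396 times for miR-382-5p and 28.4 times for miR-411-5p against lung.

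Of the cluster hairpins tested, miR-434 showed the largest difference in arm ratio between brain and the other tissues. The 5p over 3p read ratio of miR-434 averaged -2.28 ± 0.241 on the log2 scale in the 15 C57 sham brains and -1.83 ± 0.164 in the 8 C3H sham brains (SD), so that miR-434-3p outnumbered miR-434-5p. In sham lung the averages were -0.0793 ± 0.582 and -0.636 ± 0.588 and in sham heart -0.866 ± 0.491 and -0.274 ± 0.311. The highest sham brain ratio (-1.63) lay below the lowest sham lung ratio (-1.48) and the lowest sham heart ratio (-1.58). The ratio was lower in brain than in lung by 1.70 (SE 0.147, limma adjusted p = 1.03e-16) and than in heart by 1.49 (SE 0.113, limma adjusted p = 6.65e-19). Among all 69 and 62 hairpins with both arms tested, 49.3% and 30.6% had a lower 5p share in brain at this threshold. A higher one was found for 20.3% and 24.2%, so that differences in either direction were common. Of the other cluster hairpins, miR-136 was lower by 0.49 than in lung (SE 0.216, limma adjusted p = 0.0407), and miR-376b by 0.49 than in heart (SE 0.186, limma adjusted p = 0.0204). Against lung, miR-299a, miR-369 and miR-376b did not pass the test, and against heart miR-136 and miR-299a did not (limma adjusted p = 0.542 and 0.109).

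After WTLI the cluster was higher in lung in both strains. In C3H lung the summed cluster was at 300, 332 and 381.3 RPM (lowest, median and highest) in the 8 sham libraries and at 692, 845 and 978 RPM in the 7 irradiated ones, with means of 334 ± 24.4 and 824 ± 104 RPM (SD) and a ratio of 2.46. In C57 lung it was at 261, 312 and 473 RPM in the 15 sham libraries and at 716, 559, 583, 521 and 578 RPM in the 5 irradiated ones, with means of 339 ± 61.3 and 591 ± 73.8 RPM and a ratio of 1.74. In both strains every irradiated library lay above every sham library, and within C57 males the sham range was 305 to 473 RPM and the irradiated range 521 to 716 RPM. The sum is dominated by miR-379-5p, so the mean log2 RPM over the 24 members tested was also taken. It was higher after WTLI by 1.07 (SE 0.151) in C3H and by 0.76 (SE 0.0985) in C57, with 7 of 7 and 4 of 5 irradiated libraries above all sham ones. With quantile normalisation, the scaling of the member values that follow, these changes were smaller, at 0.62 and 0.498.

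The samples' titles carry a letter, A or B, of unstated meaning, and libraries marked A gave a mean log2 difference of 0.681 for C3H and 0.777 for C57, those marked B 1.40 and 0.769. The median change of all 350 miRNAs tested in C3H lung was -0.08 with quantile normalisation, -0.02 with TMM factors and 0.27 with the library total alone, and the members' median lay above it by 0.648, 0.736 and 0.727. In C57 lung the excess was 0.599, 0.625 and 0.630. The values that follow are from quantile-normalised log2 RPM unless stated.

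In C3H lung 5 of the 24 members tested were called higher and 0 lower, where 6.29% of all 350 miRNAs were called higher and 3.43% lower. At the adjusted p alone 12 members were higher and 0 lower, against 16.3% and 17.1% of all miRNAs. The members' median log2 change was 0.57 against -0.08 over all miRNAs tested. In C57 lung 3 members were called higher and 0 lower (background 3.71% and 2.29%), and 9 were higher and 0 lower at the adjusted p alone (9.43% and 7.14%), with a median of 0.55 against -0.05. The 3 members called in C57, miR-541-5p, miR-376b-3p and miR-376a-3p, were also called in C3H, where miR-431-5p and miR-434-5p were called besides. Both counts depended on the setting: in C3H 3 members were called without WTLI replicate 5, and in C57 1 was called with sex as a covariate and 0 of 21 tested in males alone. The RPM ranges of irradiated and sham libraries did not overlap for 9 of the 24 members in C3H lung (12% of all miRNAs, higher) and for 2, miR-379-5p and miR-541-5p, in C57 lung (1.71%).

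Of the upstream group, miR-431-5p was at 4.34, 6.85 and 7.81 RPM (lowest, median and highest) in C3H sham lung and at 18.4, 22.4 and 27.3 RPM after WTLI. The groups did not overlap, and the miRNA rose by 1.32 on the log2 scale (SE 0.193, limma adjusted p = 2.34e-06). In C57 lung it was at 3.07, 6.98 and 13.8 RPM in sham libraries and at 11.9, 18, 16, 11 and 9.38 RPM after WTLI, where 2 of 5 lay above all sham libraries, and its change was 0.62 (SE 0.189, limma adjusted p = 0.0209), below the fold minimum. Its difference between strains (0.70, SE 0.27) had a limma adjusted p of 0.307. MiR-434-5p was at 3.57, 6.70 and 8.15 RPM in C3H sham lung and at 10.1, 19.6 and 26.6 RPM after WTLI. The groups did not overlap, but the rise of 1.18 (SE 0.224, limma adjusted p = 1.14e-04) was at the fold minimum and dropped under it when any of 7 libraries (sham replicates 1, 5 and 7, WTLI replicates 4 to 7) was left out. In C57 lung it was at 5.39, 6.98 and 12.7 RPM in sham libraries and at 23.4, 10, 10.1, 6.42 and 17.5 RPM after WTLI, with a difference of 0.47 (limma adjusted p = 0.118). The other arm, miR-434-3p, had a difference of 0.40 in C3H (SE 0.238, limma adjusted p = 0.202) and of 0.71 in C57 (SE 0.234, limma adjusted p = 0.0327). MiR-136-5p was at 11.6, 15.8 and 18.4 RPM in C3H sham lung and at 11.4, 18.1 and 28.4 RPM after WTLI, overlapping ranges, with a difference of -0.24 (SE 0.248, limma adjusted p = 0.478). The sign turned with the library total alone (0.20) and between letters A and B (-0.315 and 0.617 in log2 RPM). In C57 the difference was 0.21 (SE 0.242, limma adjusted p = 0.560), and -0.037 with sex as a covariate.

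In the miR-379/miR-410 group the change with the smallest adjusted p in either strain was that of miR-541-5p. It was at 19.1, 21.9 and 27.2 RPM in C3H sham lung and at 85.7, 97.3 and 113 RPM after WTLI, and at 10.9, 22.7 and 42.4 RPM in C57 sham lung and 82.5, 52.8, 61.6, 50.3 and 46.7 RPM after WTLI. The groups did not overlap in either strain. After WTLI miR-541-5p rose in C3H by 1.64 (SE 0.180, limma adjusted p = 6.76e-09). The rise in C57 was 1.202 (SE 0.179, limma adjusted p = 5.51e-06). In C57 its difference lay just under the fold minimum without WTLI replicate 1 (1.05) or sham replicate 2, 8 or 14 (1.17, 1.15 and 1.16), and with sex as a covariate (1.169). In males alone, the sex of 4 of the 5 irradiated C57 mice, it was 1.22 (limma adjusted p = 0.0576). Among the C3H lungs marked A its mean log2 RPM was higher after WTLI by 1.97, among those marked B by 2.26, while either letter gave 1.36 for the C57 lungs.

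MiR-376b-3p was at 1.08, 2.43 and 3.97 RPM in C3H sham lung and at 5.18, 9.12 and 15.1 RPM after WTLI, and it rose by 1.39 (SE 0.286, limma adjusted p = 2.86e-04). In C57 lung it was at 0.634, 2.39 and 7.26 RPM in sham libraries and at 6.74, 7.57, 8.68, 7.70 and 3.93 RPM after WTLI, and it rose by 1.45 (SE 0.273, limma adjusted p = 3.04e-04), a call lost in males alone (1.48, limma adjusted p = 0.0699). The groups did not overlap in C3H, and in C57 3 of 5 irradiated libraries lay above all sham libraries. The mean log2 RPM of C3H lungs was higher after WTLI by 1.02 (letter A) or 2.65 (letter B), that of C57 lungs by 1.22 (letter A) or 2.0 (letter B). Its near-identical neighbour miR-376a-3p was scarcer, at 0.255, 0.857 and 1.63 RPM in C3H sham lung and 1.10, 2.94 and 8.61 RPM after WTLI, and at 0.266, 0.988 and 4.13 RPM in C57 sham lung and 2.92, 4.23, 2.24, 3.34 and 3.27 RPM after WTLI. Of the irradiated libraries 6 of 7 in C3H and 1 of 5 in C57 lay above all sham libraries. MiR-376a-3p was called in both strains, with a rise of 1.28 for C3H (SE 0.407, limma adjusted p = 0.0136) and 1.38 for C57 (SE 0.360, limma adjusted p = 0.00777). In C3H the call was lost without sham replicate 4 or 5 or WTLI replicate 1 (1.11, 1.12 and 1.16, under the fold minimum) and without WTLI replicate 5 (1.04, limma adjusted p = 0.0524). In C57 the call was lost with sex as a covariate (1.09, limma adjusted p = 0.0503) and in males alone (0.68, limma adjusted p = 0.440), and the difference of C57 sham males from sham females was 1.12 (limma adjusted p = 0.0864).

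The 2 most abundant members in lung gave tight values with smaller changes. MiR-379-5p was at 108, 117 and 133 RPM in C3H sham lung and at 275, 290 and 368 RPM after WTLI, and at 91.2, 113 and 172 RPM in C57 sham lung and 286, 210, 217, 180 and 215 RPM after WTLI. No irradiated library overlapped with a sham library in either strain, and the changes were 1.10 (SE 0.149, limma adjusted p = 5.12e-07) and 0.69 (SE 0.148, limma adjusted p = 0.00111), both under the fold minimum. MiR-411-5p was at 40.5, 47.3 and 58.1 RPM in C3H sham lung and at 81.8, 106 and 143 RPM after WTLI, with a change of 0.86 (SE 0.138, limma adjusted p = 1.22e-05). In C57 it was at 31, 48.4 and 63.5 RPM in sham libraries and at 91.9, 78.6, 87.6, 62.9 and 81.6 RPM after WTLI, where 4 of 5 lay above all sham libraries, with a change of 0.71 (SE 0.136, limma adjusted p = 3.11e-04). With the library total alone in place of quantile normalisation, miR-379-5p, miR-411-5p, miR-382-5p and miR-134-5p passed the fold minimum in C3H lung, with changes of 1.35, 1.23, 1.30 and 1.502, and 11 members were called. In that setting 41 of all 350 miRNAs were called higher, against 22 with quantile normalisation.

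**Figure D3:**
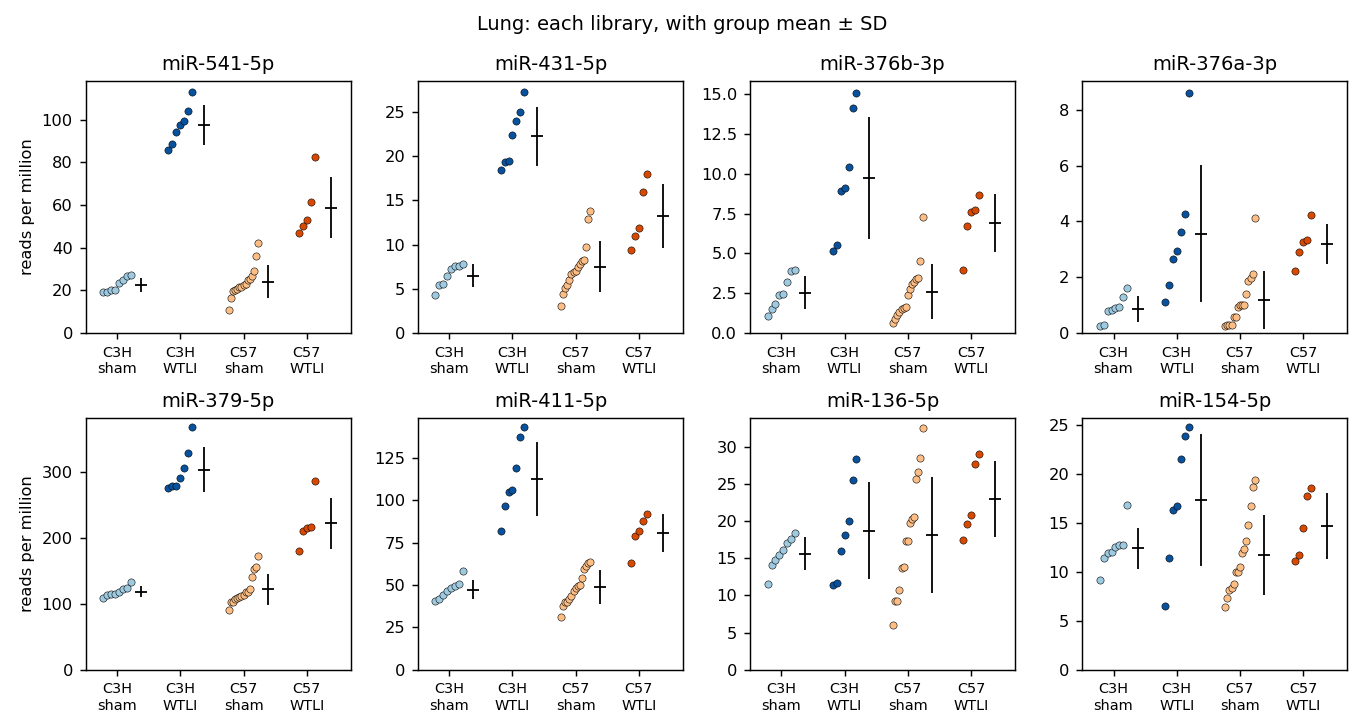
RPM of 8 members in each lung library by strain and irradiation, with the mean ± SD of each group beside its points. MiR-541-5p and miR-379-5p do not overlap between irradiated and sham libraries in either strain, while miR-136-5p and miR-154-5p overlap in both.

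Members differed in how far their change lay from that of the rest. The change of a member minus the mean change of the other members was computed within each library from log2 RPM, where a factor common to the whole library cancels, but quantile normalisation does not. In C3H lung this difference was 1.08 (SE 0.170) for miR-541-5p, 0.86 (SE 0.190) for miR-376b-3p and 0.73 (SE 0.134) for miR-431-5p. It was -0.91 (SE 0.0924) for miR-136-5p, -0.73 (SE 0.159) for miR-154-5p and -0.997 (SE 0.286) for miR-376b-5p. These differences were not tested. In C57 lung the differences were 0.58 (SE 0.162) for miR-541-5p, 0.84 (SE 0.260) for miR-376b-3p, 0.11 (SE 0.201) for miR-431-5p, -0.32 (SE 0.197) for miR-136-5p, -0.41 (SE 0.180) for miR-154-5p and -0.031 (SE 0.323) for miR-376b-5p.

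The arms of the miR-376b hairpin parted in C3H lung. The log2 ratio of miR-376b-5p to miR-376b-3p reads was -1.29, -0.417 and 0.737 (lowest, median and highest) in sham libraries and -3.04, -2.01 and -1.5 after WTLI, and the groups did not overlap. It fell by 1.78 (SE 0.502, limma adjusted p = 0.0353 over 86 hairpins, of which 4.65% had a lower 5p share). The call was lost when any 1 of 9 of the 15 libraries was left out (sham replicates 2, 4, 6 and 7, WTLI replicates 1, 3, 5, 6 and 7). For C57 lungs the ratio differed by -0.83 (SE 0.5, limma adjusted p = 0.710). Heart gave -0.56 for C3H (SE 0.417, limma adjusted p = 0.489) and -1.18 for C57 (SE 0.416, limma adjusted p = 0.478). Both arms were scarce in lung, with means over the 23 sham libraries of 1.91 and 2.57 RPM for miR-376b-5p and miR-376b-3p.

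**Figure D4:**
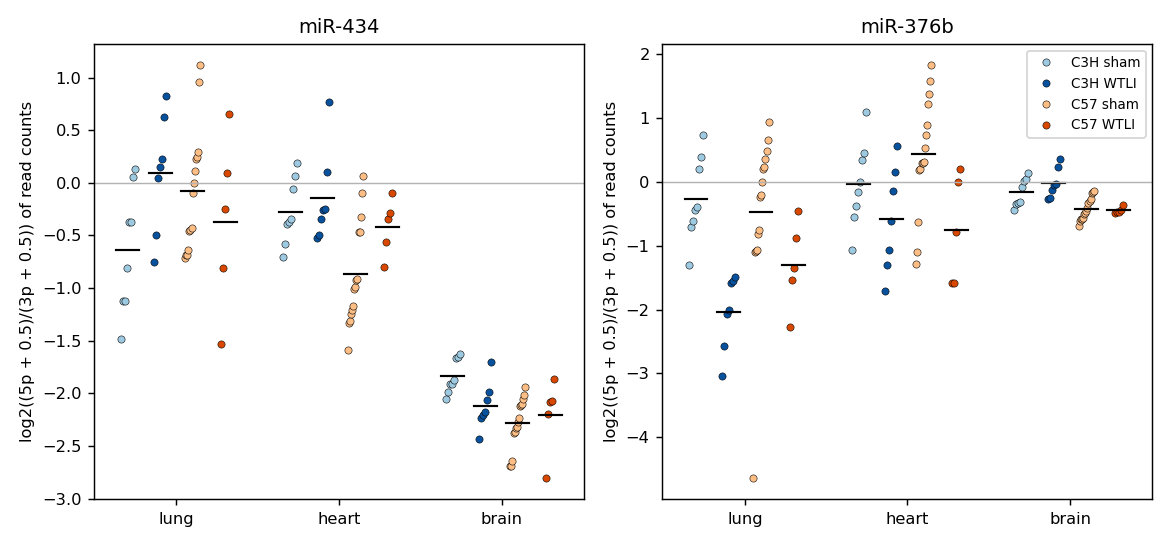
Log2 ratio of 5p to 3p reads (0.5 added to each count) for miR-434 and miR-376b in each lung, heart and brain library by strain and irradiation, with lines at group means. For miR-434 the sham brain points, at -1.63 or lower, lie below all sham lung and heart points, and for miR-376b the irradiated C3H lungs, at -1.5 or lower, lie below all sham C3H lungs.

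No member was called for a difference in the WTLI change between strains in lung (0.286% of all miRNAs were), nor by edgeR, while 3 members had an unadjusted p under 0.05 in limma: miR-431-5p, miR-134-5p and miR-434-5p. MiR-134-5p, which lies in an exon of Mirg, was at 4.14, 6.10 and 7.82 RPM in C3H sham lung and at 13.2, 14.8 and 25.6 RPM after WTLI without overlap, and at 0.988, 4.27 and 10.9 RPM in C57 sham lung and 6.74, 4.45, 3.92, 4.11 and 8.07 RPM after WTLI, inside the sham range. Its changes were 1.05 (SE 0.276, limma adjusted p = 0.00355) and 0.07 (SE 0.312, limma adjusted p = 0.887), and the difference between them was 0.98 (SE 0.417, limma adjusted p = 0.317). In C3H it was called by edgeR (1.27, adjusted p = 9.32e-04) and DESeq2 (1.30, adjusted p = 9.92e-05).

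Markers of other cells moved with these groups as well. In C57 lung all 7 of the brain markers measured (such as miR-124-3p and miR-9-5p, abundant in neurons) were higher after WTLI, with a summed ratio of 2.15. WTLI replicates 3 and 4, at 352 and 681 RPM for the 7 markers together, exceeded all sham libraries (72.3 to 234 RPM). Without these 2 libraries the mean log2 change of the cluster was 0.758 (SE 0.118), miR-541-5p, miR-376b-3p and miR-376a-3p were called as before (1.22, 1.31 and 1.60), and miR-329-5p was called lower (-1.22, limma adjusted p = 0.0495). In C3H lung the brain markers summed to a median of 151 RPM in sham and 207 RPM in irradiated libraries, a ratio of medians of 1.37, while the ratio of means was 0.968 and, without sham replicate 4 at 559 RPM, 1.29. The summed brain markers of sham lung stood at 0.107% of their brain level and the cluster at 0.743% of its brain level. In C3H lung the 4 erythrocyte markers were higher after WTLI with a summed ratio of 2.28 (C57 0.481), the cardiac muscle markers lower with 0.699 (C57 0.976), the endothelial markers lower with 0.8 (C57 0.891), and 4 of 5 mesenchymal markers higher with 1.09 (C57 2 of 5, 0.943). For leukocyte markers the ratio was 1.22 in C3H and 1.47 in C57, and for epithelial markers 0.91 and 0.956. None of the markers was at 0 in lung or heart, and the part of cell make-up in the change of the cluster was not tested.

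In heart, which lay in the beam too, the summed cluster was 446 ± 77.8 RPM in 8 sham and 622 ± 91.7 RPM in 7 irradiated C3H hearts (SD), a ratio of 1.39 with 2 of 7 irradiated libraries above all sham libraries, and 439 ± 40.8 and 458 ± 85.1 RPM in 15 and 5 C57 hearts. The mean log2 RPM over the 23 members tested was higher in irradiated C3H hearts by 0.2045 (SE 0.158) with 0 of 7 above all sham hearts, and the direction turned between the letters, with -0.139 in A and 0.522 in B. In C57 it differed by 0.000147 (SE 0.15). MiR-541-5p was the only member called in C3H heart (4.81% of all 312 miRNAs were called higher and 1.92% lower). It was at 23.2, 29.1 and 39.1 RPM in sham hearts and at 45, 64.2 and 79.3 RPM after WTLI with no overlap, and it rose by 1.27 (SE 0.229, limma adjusted p = 9.04e-05). The call was lost without sham replicate 4 and with the library total alone. At the adjusted p alone 6 members were higher and 0 lower (10.3% and 6.41% of all miRNAs), namely miR-431-5p, miR-379-5p, miR-411-5p, miR-382-5p, miR-541-5p and miR-409-3p, with differences from 0.46 to 1.27. MiR-134-5p was at 5.37 to 56.7 RPM after WTLI against 2.16 to 7.70 RPM in sham C3H hearts, with a change of 1.23 (SE 0.467, limma adjusted p = 0.0626). The highest value came from replicate 3, and the other irradiated hearts were at 5.37 to 9.41 RPM. In these C3H hearts the summed ratio of WTLI to sham was 0.524 for erythrocyte, 0.531 for leukocyte, 0.765 for cardiac muscle, 0.489 for epithelial, 1.12 for endothelial, 0.917 for mesenchymal and 0.781 for brain markers, whose part in the result was not tested. Sham replicate 3 carried much of these means for 2 of the lists, and without it the ratio was 0.862 for leukocyte and 0.74 for epithelial markers. Without WTLI replicate 3 the cardiac muscle ratio was 0.859. The cardiac muscle markers of irradiated C3H hearts were at 50700, 217000 and 247000 RPM (lowest, median and highest).

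In C57 heart 0 members were called by limma, edgeR or DESeq2 (0.962% of all miRNAs were called higher, and at the adjusted p alone 3.21% were higher and 0.321% lower) and 5 had an unadjusted p under 0.05. MiR-541-5p was at 23.1, 29.4 and 51.1 RPM in sham hearts and at 42.1, 43.7, 40.3, 26.6 and 30.2 RPM after WTLI, inside the sham range. The first 4 irradiated hearts were from males, and sham males ranged only from 23.1 to 36.7 RPM, so that 3 of the 4 lay above every sham male. The strain difference in its change (1.15, SE 0.324) had a limma adjusted p of 0.0624. MiR-329-5p was at 0.384, 1.85 and 3.96 RPM in C57 sham hearts and at 0.619, 0.331, 1.65, 0 and 0.487 RPM after WTLI, with a change of -2.02 (SE 0.690, limma adjusted p = 0.0886). Its range was 0.384 to 2.06 RPM in sham males and 1.15 to 3.96 RPM in sham females.

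The change in lung minus that in heart was tested for each strain. In C3H 0 members were called by limma and 2 by edgeR (2.67% of all 374 miRNAs were called higher in lung) and 3 had an unadjusted p under 0.05 in limma. MiR-376b-3p had the largest of these differences (1.24, SE 0.467, limma adjusted p = 0.0838). In C57 1 member was called (1.34%), miR-376c-3p, at 2.85, 6.42 and 12.4 RPM in sham lung and 18.7, 15.4, 10.4, 8.99 and 10 RPM after WTLI, and at 1.37, 7.43 and 10.7 RPM in sham heart and 6.81, 7.62, 3.96, 2.45 and 6.82 RPM after WTLI. The ranges overlapped in both tissues. Its difference was 1.22 (SE 0.385, limma adjusted p = 0.0401), from a change of 0.70 in lung and -0.56 in heart in the fits of each tissue, and no member was called when any of 13 libraries was left out (heart sham replicates 2, 5, 7, 8, 10 and 12, heart WTLI replicates 3 and 4, lung sham replicates 11, 13, 14 and 15, lung WTLI replicate 1). MiR-541-5p (1.09, SE 0.290, limma adjusted p = 0.0125) and miR-411-5p (0.69, limma adjusted p = 0.0226) also passed the adjusted p in C57, below the fold minimum.

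**Figure D5:**
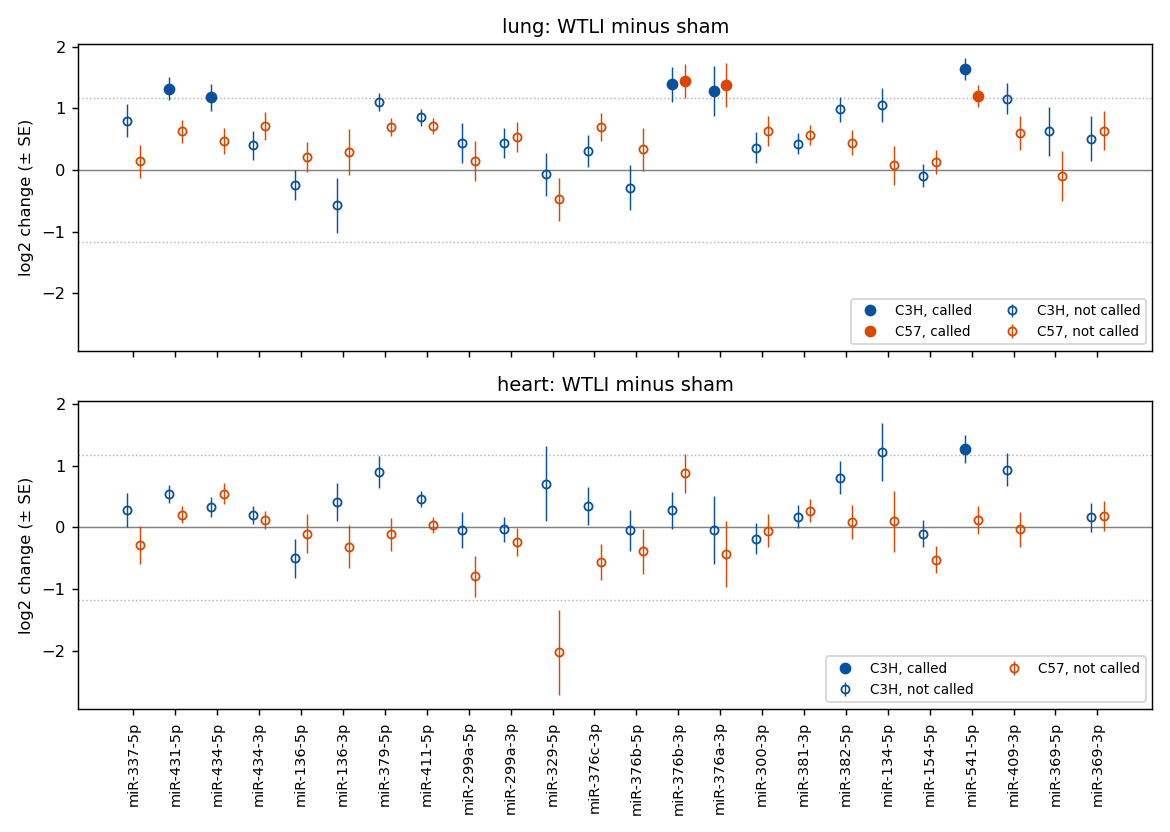
Log2 change after WTLI ± SE of each member tested in lung and heart in map order, with filled points for called members and dotted lines at the fold minimum. In lung most points lie above 0 in both strains, 19 of 24 in C3H and 22 of 24 in C57, and in heart only miR-541-5p of C3H is called.

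In brain, outside the beam, 0 of 41 members were called after WTLI in either strain by limma, edgeR or DESeq2, as were 0% of all miRNAs tested. The summed cluster was at 42700 ± 4570 and 43300 ± 2900 RPM in sham and irradiated C3H brains and at 46800 ± 2500 and 51900 ± 2870 RPM in C57 brains (SD), where 2 of 5 irradiated libraries lay above all sham libraries. At an unadjusted p under 0.05 there were 0 members in C3H and 8 in C57, with a smallest adjusted p of 0.135. The largest change in C57 was that of miR-134-5p (1.17, SE 0.361, limma adjusted p = 0.146). With sex as a covariate 1 member was called in C57 brain, and in males alone likewise 1. Brain libraries varied widely in the summed epithelial markers. These were at 172, 1810 and 41000 RPM (lowest, median and highest) in C57 sham and 166, 213 and 2950 RPM in irradiated C57 brains. In C3H brains they were at 228, 1630 and 29200 RPM in sham and 97.6, 3800 and 12900 RPM after WTLI. Their part in these values and in the sex and strain differences of brain was not tested. In WBC and RBC miR-379-5p was not called after WTLI in either strain.

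Sham animals differed by strain in a few members. MiR-376c-3p was at 58.3, 69.0 and 94.1 RPM in C3H sham brain and at 110, 199 and 298 RPM in C57 sham female brain, with no overlap, a difference of 1.42 (SE 0.190, limma adjusted p = 1.78e-06, 1.85% of all miRNAs called higher in C57). Its level in C57 sham male brain was 198, 246 and 277 RPM. In blood miR-379-5p was the member that could be tested, and it was lower in C57. It was at 3.75, 5.31 and 9.26 RPM in 5 C3H sham WBC libraries and at 0.398, 1.70 and 2.42 RPM in 4 C57 sham female ones, a difference of -3.19 (SE 0.491, limma adjusted p = 1.19e-04, 7.56% of all miRNAs called lower). With TMM factors this difference was -2.51 and with the library total alone -1.88, near the log2 ratio of the mean RPM (-1.87), and it was called with either. In RBC it was at 2.46, 5.28 and 8 RPM in C3H and at 0, 0.762 and 2.58 RPM in C57 females, ranges that overlapped slightly, and the difference was -2.90 (SE 0.449, 3.06% called lower). In heart miR-329-5p was called higher in C57 females (1.58, SE 0.520, limma adjusted p = 0.0210, 4.49% called higher and 7.05% lower), at 0.298, 2.03 and 3.82 RPM in C3H against 1.15, 2.26 and 3.96 RPM, overlapping ranges. The 4 C3H sham hearts marked A were at 0.298 to 1.41 RPM and the 4 marked B at 2.64 to 3.82 RPM, the latter inside the C57 female range. With the library total alone the difference of miR-329-5p was 0.71 (limma adjusted p = 0.165), and miR-376b-3p was called lower instead (-1.74, limma adjusted p = 0.00656). MiR-376b-3p was at 2.77 to 7.35 RPM in the C3H hearts marked A and 0.849 to 2.05 RPM in those marked B. In C57 females it was at 0 to 1.65 RPM, so that both heart differences came mainly from the C3H hearts marked A. In lung 0 members differed between strains by limma or edgeR at these thresholds (2% of all miRNAs were called higher in C57 and 3.71% lower), and 0 at the adjusted p alone (8.57% and 6.57%), while 1 had an unadjusted p under 0.05.

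Sex was compared in C57 sham mice. In brain 2 members were called higher in males (0.693% of all miRNAs). MiR-377-3p was at 14.6, 24.6 and 37.1 RPM in females and 45.4, 56.3 and 88.8 RPM in males, a difference of 1.42 (SE 0.207, limma adjusted p = 4.04e-05), and miR-136-3p was at 83.1, 211 and 333 RPM in females and 318, 504 and 588 RPM in males, a difference of 1.36 (SE 0.270, limma adjusted p = 6.38e-04). The former did not overlap between the sexes and the latter overlapped at 1 end of the range. At the adjusted p alone 10 members were higher in males and 0 lower (15.9% and 6.93% of all miRNAs). In lung miR-369-3p was called higher in males (1.19, SE 0.310, limma adjusted p = 0.0290, 0.857% of all miRNAs called higher and 1.43% lower), at 4.16, 6.69 and 8.4 RPM against 0.951, 2.93 and 5.45 RPM in females, and miR-136-5p differed by 1.00 (SE 0.184, limma adjusted p = 0.00154). In heart miR-329-5p was called lower in males (-1.56, SE 0.531, limma adjusted p = 0.0219, 3.21% of all miRNAs called lower and 5.13% higher). With the library total alone it was not (-1.03, limma adjusted p = 0.0617), while miR-136-5p and miR-376b-3p were called higher in males (1.45 and 1.40). At the adjusted p alone 2 members were higher and 8 lower (19.6% and 19.9%). The all-female C3H sham hearts also differed between letters A and B. They were at 0.298 to 1.41 and 2.64 to 3.82 RPM for miR-329-5p, 33.9 to 86.0 and 12.1 to 17.3 RPM for miR-136-5p, and 2.77 to 7.35 and 0.849 to 2.05 RPM for miR-376b-3p. In C57 sham males the letters overlapped for miR-329-5p (1.11 to 2.06 and 0.384 to 1.85 RPM). In RBC miR-379-5p was called lower in males (-1.64, SE 0.520, limma adjusted p = 0.0234, 4.37% called lower), at 0, 0 and 0.638 RPM against 0, 0.762 and 2.58 RPM in females. The size of this difference is set near the floor, since the 20 C57 RBC libraries held 33 counts of it in all, and it was -2.14 with TMM factors and -2.18 with the library total.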

How the data were processed

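Small RNA libraries were made by the authors with the QIAseq miRNA kit, which adds molecular identifiers. Whether these entered the counting is not given in the sources used here. The authors trimmed reads and aligned them to mouse miRNAs (mm10) with the Small RNA application of Illumina BaseSpace. They deposited 1 table per tissue (5 in all) of unnormalised counts for 1915 mature miRNAs. There were 167 libraries from 35 animals, and 0 columns belonged to no sample. No replicate pair agreed within sampling noise (smallest chi-square per degree of freedom 15.5).

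Counts were filtered by filterByExpr (count minimum 10, total minimum 15) of edgeR 4.0.16, converted by voom to quantile-normalised log2 RPM and fitted in limma 3.58.1 (R 4.3.3), 1 model per tissue with 4 groups. Two-sided p-values were adjusted by Benjamini-Hochberg over all miRNAs tested. Counts at an unadjusted p are given for members alone, without the share of all miRNAs, and are descriptions. Sexes and strains were compared in sham animals with 6 groups per tissue, lung was set against heart in 1 fit of 8 groups, and brain with other tissues in a fit with 20 groups without quantile normalisation. Arm ratios, log2((5p + 0.5)/(3p + 0.5)), were fitted by limma with a trend over all hairpins with both arms tested. The change of the cluster as a mean has no test. The methods were tested on simulated counts. Alternatives were edgeR's quasi-likelihood test, DESeq2 1.42.0, TMM or library-total scaling, other filters and pseudocounts, no fold minimum, sex or letter as covariate, C57 males alone, the animal as a block, and leaving out each library. C57 lung without the libraries high in brain markers was added after the data were seen, as were the cluster mean in C57 males alone, other scalings of single strain and sex differences, and marker ratios without each library. Between tissues, calls were counted for members that passed the filter of the tissue set against brain.

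The members, the marker lists and the comparisons were chosen with earlier results of these data known. Members named are those called after WTLI, for the strain difference or for lung against heart, the 5 with the smallest adjusted p in each lung comparison, those furthest from the mean change, the 5 most abundant in brain, and those of hairpins called for the arm ratio. Members called between strains or sexes, miR-127-3p, miR-300-3p, miR-299a and miR-369 were named besides, after their values were seen. Titles tie the tissues of each animal together, and between tissues an animal's deviations from the group means had a median r of -0.0823 to 0.155 over the pairs of tissues.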

Additional observations from a re-analysis of the deposited data

Results flagged for a closer look

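In 11 of 117 sets of values, each of a member or of the summed cluster in a group of 4 to 10 libraries, 1 library stood apart by Dixon's criterion. Chance gives about 1 in 20 for independent sets. These sets share libraries, so that the count of 11 cannot be set against it. In C3H heart after WTLI, replicate 3 stood apart for 4 members: it was highest for miR-134-5p (56.7 RPM) and miR-382-5p (212 RPM) and lowest for miR-154-5p (2.56 RPM) and miR-136-3p (0.697 RPM). Replicate 1 of the same group was highest for miR-136-5p (48.0 RPM). Replicate 3 of C3H sham heart was highest for the summed cluster (612 RPM) and for miR-376c-3p (7.07 RPM). In C3H lung after WTLI, replicate 3 was highest for miR-136-3p (2.94 RPM) and replicate 5 for miR-376a-3p (8.61 RPM), and sham replicate 2 was highest for miR-154-5p (16.8 RPM). In RBC the summed cluster was highest in C3H WTLI replicate 3 (20.0 RPM). Lung and heart were the pair of tissues whose changes after WTLI were tested against each other, and the only member that differed by the limma test of the difference and the fold minimum in the fit of the report was miR-376c-3p in C57, by 1.22 on the log2 scale between lung and heart, while edgeR called 2 members in C3H and limma with the library total alone 3. The cause of these values was not tested.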

How the results depend on the processing

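No called result changed direction under any alternative run. In C3H lung the 5 members called became 11 with the library total alone, where 41 of all 350 miRNAs were called higher. They became 1 of 9 members tested under the strict filter, 12 with no fold minimum and 3 to 6 when 1 library was left out (3 without WTLI replicate 5). In C57 lung the 3 called became 1 of 9 under the strict filter, 9 with no fold minimum, 1 with sex as a covariate, 0 of 21 in C57 males alone and 2 to 3 when 1 library was left out. In C57 males the changes were 1.48 for miR-376b-3p, 1.22 for miR-541-5p and 0.68 for miR-376a-3p (limma adjusted p = 0.0699, 0.0576 and 0.440). The 1 called in C3H heart became 0 with the library total alone, 6 with no fold minimum, 2 with the letter or the sex as covariate and 0 to 2 when 1 library was left out (0 without sham replicate 4, 2 without sham replicate 5 or WTLI replicate 1 or 6). In C57 brain 0 became 1 with sex as a covariate and in males alone.

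Between C57 sexes, the 1 in lung became 2 by edgeR, 0 under the strict filter, 3 with no fold minimum and 0 to 1 leaving out 1 library (0 without sham replicate 4, 7, 8, 9, 10 or 14), and the 1 in heart 2 with the library total (miR-136-5p and miR-376b-3p, higher in males, in place of miR-329-5p, lower in males), 0 under the strict filter and 10 with no fold minimum. The 2 in brain became 10 with no fold minimum and 1 to 2 leaving out 1 library (1 without sham replicate 13), the 0 in WBC 1 by edgeR, and the 1 in RBC 0 to 1 leaving out 1 library (0 without sham replicate 10, 12 or 13). Between strains, the 1 in heart became 0 under the strict filter, 8 with no fold minimum and 0 to 2 leaving out 1 library (0 without C3H sham replicate 2, 3 or 4, 2 without C57 sham replicate 15), and the 1 in brain 10 with no fold minimum. The strain difference of the heart change (0) became 0 to 1 leaving out 1 library (1 without C57 sham replicate 2 or 7, C3H WTLI replicate 1 or C3H sham replicate 5).

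For lung minus heart, the 0 in C3H became 2 by edgeR and 3 with the library total. The 1 in C57 became 0 with the library total and under the strict filter, 3 with no fold minimum and 0 to 2 leaving out 1 library (0 for 13 libraries, 2 for 4). The hairpin called in C3H lung was lost for 9 libraries left out (0 to 1). The hairpins called between brain and lung became 4 with a pseudocount of 5, and those between brain and heart 1 under the strict filter. The mean change of the cluster in C3H lung (1.071) was 0.6221 with quantile normalisation, 0.7761 with TMM factors, 0.6814 and 1.397 within letters A and B, and 1.003 to 1.168 leaving out 1 library. In C57 lung (0.7567) it was 0.7224 to 0.8062 leaving out 1 library and 0.6077 in males. In C3H heart (0.2045) it was -0.1387 and 0.5222 within the letters and 0.1598 to 0.3009 leaving out 1 library, and in C57 heart -0.2405 as a median over members and -0.09775 to 0.1012 leaving out 1 library. In brain it was -0.07038 to 0.01292 in C3H and 0.02201 to 0.1709 in C57, in WBC -0.284 to 0.09176 and -0.8317 to 0.4689, and in RBC -0.5934 to -0.04335 and -0.5923 to 0.2006.

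The same animals were paired across tissues by a block in the fit. With the replicate block for the animal the counts were 0 and 1 for lung minus heart in C3H and C57, 41 for brain against each other tissue and 2 and 2 for the arm ratios, so that the block changed no call count. Of the 41 called in brain against lung, heart, WBC and RBC, 24, 23, 1 and 1 passed the filter of the other tissue itself, and the call of the rest was fixed by the filter. The cause of the other changes was not tested. The change of miR-434-5p was near the fold minimum. Members below the filter had low counts in lung, heart and blood, and their change after WTLI was not tested there.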

Other observations

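A further 67 mature miRNAs of the same imprinted region were not on the list. Of these 0 passed the filter in lung, 1 in heart and 26 in brain, and 0 of the 26 were called after WTLI in brain.

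Within groups the deviations of members from their group means were compared, with no test. Over the 35 lung libraries the median correlation of a member's deviation from its group mean with the mean deviation of the other members was 0.479, against 0.239 for miRNAs outside the cluster with the mean of all members. In brain the values were 0.586 and 0.226, and in heart 0.477 and 0.428. The lowest value in brain was that of miR-370-3p (-0.507) and in heart that of miR-379-5p (-0.497), but neither moved alone. In C3H WTLI brain replicate 2, miR-370-3p, miR-382-5p, miR-134-5p and miR-485-5p were each the highest of the group (765, 16400, 656 and 13.5 RPM). So were miR-379-5p, miR-382-5p and miR-134-5p in C3H WTLI heart replicate 3 (233, 212 and 56.7 RPM). The correlations share libraries and depth and are given as descriptions.

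In blood miR-411-5p, the neighbour of miR-379-5p, had a count in all 11 C3H WBC libraries (median 1.13 RPM) and in 8 of 16 C57 ones (median 0.108 RPM).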
